A study of Mus musculus with 2 samples.

Results

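The 149 genes described here are those whose transcript mix, in mouse cerebral cortex, was assigned mostly to transcripts annotated as retained intron. In the transcript table that gives each transcript's percent of its gene's TPM (an abundance scaled by transcript length), the percents of all transcripts typed retained intron were summed per gene. Genes with at least 10 TPM and a sum over 50% in both libraries were taken, up to a limit of 150. Of 55536 annotated genes, 9421 had a transcript of this type. With symbols starting Srsf or Tra2 left out, 5177 of those reached 10 TPM in both libraries and 149 passed. The splicing factor gene Srsf11 was the only one that passed and was left out by symbol, so 150 passed in all and the limit removed no gene. The members were chosen by this share of TPM and by the gene level in the same libraries, so both are given as a description, and support nothing by themselves.

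The tissue was left cerebral cortex from 2 female B6CASTF1/J mice, the F1 hybrid of C57BL/6J and CAST/EiJ, at 8 to 10 months of age, and total RNA was measured. Each animal gave 1 library, made from 300 ng of ribosome-reduced RNA with ERCC spike-ins and a directional kit. In the labels, animal 1 is replicate 1 and animal 5 is replicate 2. Both samples carry an identical donor entry there, so the statement that they are separate mice rests on the animal numbers alone, and a difference between libraries may be technical. There was 1 group and no treatment, so no comparison between conditions and no test was possible, and values are given for each library.

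Splicing removes introns from a primary transcript and joins the exons. When an intron stays in a polyadenylated or otherwise stable RNA, that RNA may be held in the nucleus, may be degraded by nonsense-mediated decay if it is exported with a premature stop codon, or may be spliced later. Genes for splicing factors and their kinases, such as the Clk family, are well known for detained introns, and neurons are known to use retained introns to time gene expression. In the GENCODE annotation, a transcript is typed retained intron when it contains sequence that is intronic in coding transcripts of the same gene, whether it holds a whole intron or only a piece of one.

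The libraries held 28327434 and 30234441 expected counts (reads shared out among the features they fit). Members took 0.615% and 0.645% of them, and transcripts of the retained-intron type from all genes took 2.50% and 3.07%. Markers of neuron types were high, with the excitatory Camk2a at 1048 and 1167 TPM and Slc17a7 at 452 and 488 TPM. The inhibitory marker Gad1 stood at 245 and 249 TPM. These mark neuron types and do not by themselves single out cortex. Liver markers reached a summed 0 and 0.63 TPM. Markers of choroid plexus summed to 177 TPM in replicate 1 and 57.9 TPM in replicate 2, mostly from Ttr at 172 and 55.7 TPM. Those of striatum summed to 351 and 376 TPM.

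The leading retained-intron transcript of most members entered an intron without holding a whole one, at a share close to that of all genes. For each gene the leading retained-intron transcript, the one with the highest mean percent of gene TPM, was compared with the introns of the gene's coding transcripts. Among the 147 protein-coding members it held at least 1 whole coding intron in 44, or 29.9%, against 26.9% of all 5158 coding genes at the TPM minimum. In most others, 69.4% against 72.9%, it only entered an intron, and in Fam135b it did neither. When any retained-intron transcript of the gene was allowed, 82 members had one with a whole intron, 55.8% against 45.8%.

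The intronic pieces were short. The leading transcript of a member had a median of 98 nt outside every coding exon of its gene (quartiles 65.5 and 210), which was 13.8% of its length. The other coding genes had a median of 359 nt (quartiles 164 and 1084), or 40.9%. Fewer than 100 nt lay outside coding exons in 77 members, or 52.4%, against 15.4% of all coding genes. These leading transcripts thus shared most of their bases with coding exons of the same gene, and reads over those bases fit both kinds of model.

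**Figure D1:**
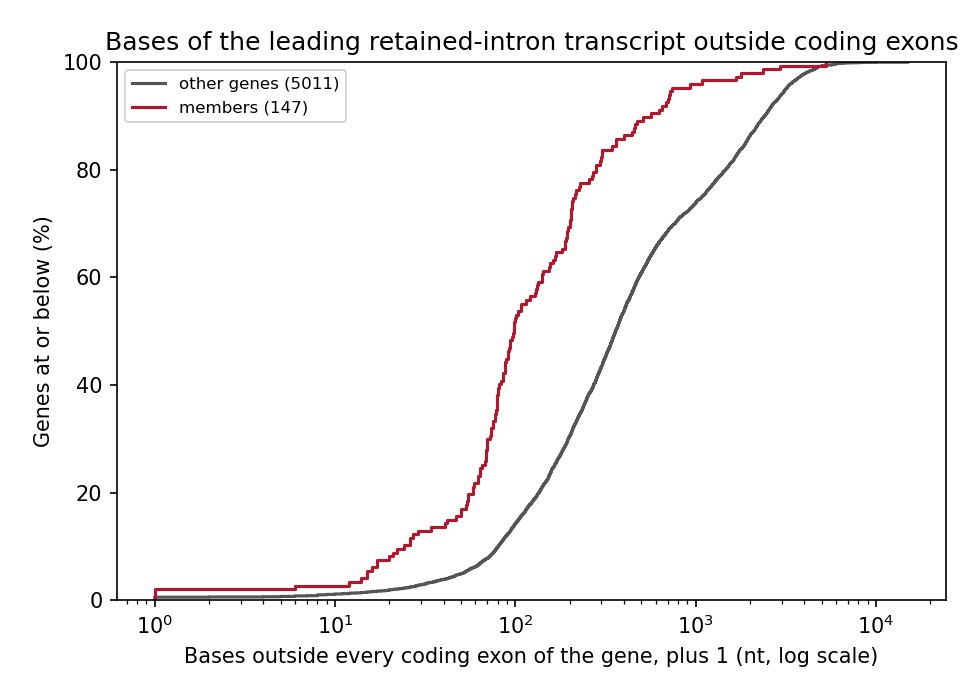
Cumulative percent of genes (vertical axis) by the number of bases of the leading retained-intron transcript that lie outside every coding exon of its gene (horizontal axis, nt plus 1, log scale). The curve of the 147 coding members (red) lies left of that of the 5011 other coding genes (grey), with medians of 98 and 359 nt.

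The position of the intronic piece also differed from the other genes. The leading transcript began inside an intron in 86 members, or 58.5%, against 42.4% of all coding genes. It ended inside an intron in 22 members, or 15.0%, against 51.6%. In 83 members, or 56.5%, it began inside an intron and ended in a coding exon or beyond it, against 32.2% of all. No test was run on these counts, since the same reads chose the members.

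The starts of 5 such models are shown because they are among those of the most highly expressed members with an intronic start of at most 100 nt between coding bases and off annotated UTRs. Each line runs 5′ to 3′ on the gene's strand from the first base of the retained-intron transcript to the intron's end, then 10 bases into the exon. Capitals mark the last 2 bases of the intron, the acceptor dinucleotide. Sequences are from the GENCODE M21 transcripts (mm10).
Uchl1-202, chr5:66676892-66676943, plus strand: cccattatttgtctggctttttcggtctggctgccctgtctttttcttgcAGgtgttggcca
Rps16-203, chr7:28350924-28350991, plus strand: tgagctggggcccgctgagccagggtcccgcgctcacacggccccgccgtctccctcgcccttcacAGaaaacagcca
Ctsb-202, chr14:63135518-63135607, plus strand: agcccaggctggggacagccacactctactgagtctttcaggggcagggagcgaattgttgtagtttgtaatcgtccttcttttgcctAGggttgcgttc
Uqcrh-205, chr4:116070025-116070078, minus strand: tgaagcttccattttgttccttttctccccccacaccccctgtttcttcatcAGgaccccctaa
Chchd10-202, chr10:75937220-75937306, plus strand: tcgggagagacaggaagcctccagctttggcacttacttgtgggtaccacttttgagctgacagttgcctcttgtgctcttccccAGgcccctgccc
All 5 pieces end in AG. They cover between 52 and 90 nt of introns whose full length was 140 nt in Rps16, 496 nt in Uchl1, 712 nt in Uqcrh, 861 nt in Chchd10 and 1557 nt in Ctsb.

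Where a whole intron was kept, it was short and GC rich. The 44 members held 54 whole introns of at least 50 nt, with a median length of 130 nt (quartiles 86 and 328) and a median GC content of 56.3%. The 2097 such introns of the other genes had medians of 319 nt and 51.2%. An intron was counted once per start and end, so overlapping definitions, as in Gtpbp6, Uckl1 and Spaca6, count separately. The other coding introns of these 44 members had a median of 534 nt per gene, taken over genes. The 5′ splice site matched the consensus CAGGTAAGT at a median of 6 of 9 positions in members and in the other genes, and the 20 bases before the last 3 of the intron were 70.0% pyrimidine in both. The intron began with GT in 53 of 54 member introns and with GC in the other, which is in Daam2, and all 54 ended in AG.

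The kept introns shown here are those of the most highly expressed members with a whole coding intron of at most 150 nt that lies in the leading coding transcript and, with its flanks, off every annotated UTR. The last condition leaves out Man2c1, a member with a kept intron of 78 nt. Each line gives 10 exon bases, the intron and 10 exon bases, with the splice-site dinucleotides in capitals, and the coordinates are those of the intron.
Prelid1-202, chr13:55324445-55324526, plus strand: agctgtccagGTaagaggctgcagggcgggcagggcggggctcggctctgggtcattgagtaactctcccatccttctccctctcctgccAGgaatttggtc
Sugt1-205, chr14:79587867-79587953, plus strand: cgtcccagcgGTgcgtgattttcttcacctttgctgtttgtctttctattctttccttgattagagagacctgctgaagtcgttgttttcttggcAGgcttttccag
Sart1-203, chr19:5380342-5380437, minus strand: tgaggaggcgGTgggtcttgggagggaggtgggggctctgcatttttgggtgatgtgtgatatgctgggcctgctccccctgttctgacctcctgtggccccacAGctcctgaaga
Tmem191c-205, chr16:17276758-17276836, plus strand: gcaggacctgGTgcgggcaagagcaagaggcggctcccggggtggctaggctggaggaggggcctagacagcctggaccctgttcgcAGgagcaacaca
Mrps26-201, chr2:130564228-130564307, plus strand: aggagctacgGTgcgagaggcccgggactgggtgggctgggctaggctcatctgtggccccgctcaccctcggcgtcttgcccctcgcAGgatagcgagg
The Prelid1 intron is number 3 of 4 and its 5′ splice site matched the consensus at 8 of 9 positions. The Sart1 intron is number 18 of 19, that of Sugt1 is number 1 of 12 and that of Mrps26 is number 2 of 3. Of the 51 member introns that lay between coding bases, 41 held an in-frame stop codon, or 80.4%, against 90.0% of the other genes' introns. Length was a multiple of 3 in 13, of which the one in Rexo2 also lacked a stop and would keep the reading frame. In the other genes length was a multiple of 3 in 589 of 1837 such introns, and 52 of these lacked a stop. These counts do not set the members apart. The kept introns ranged from 53 nt in Gfra4, a receptor gene of the GDNF family, to 2195 nt in Daam2, a formin regulator of actin and Wnt signalling.

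The members' median share was 62.8% of gene TPM in replicate 1 and 64.8% in replicate 2, against 6.84% and 8.87% over all 5177 genes. Only 2.88% of those genes passed the rule. Coding transcripts held a median of 30.1% and 29.6% of a member's TPM, against 86.0% and 83.4% over all 5177 genes. Transcripts typed nonsense-mediated decay held a median of 0% in members, and their largest share was 42.2% in replicate 1, in Clasrp. Members reached a median gene level of 27.0 and 28.7 TPM, against 30.8 and 31.7 TPM over all. The leading retained-intron transcript alone was over 50% in both libraries in 55 members, or 1.06% of the 5177 genes, and in the rest the share was the sum of several models. Members had a median of 4 retained-intron transcripts per gene, against 2 over all 5177 genes. Of the 147 coding members, 51 had 1 annotated coding transcript, or 34.7%, against 18.3% of all coding genes. The leading retained-intron transcript was shorter than the leading coding one in 127, or 86.4%, against 81.5%.

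**Figure D2:**
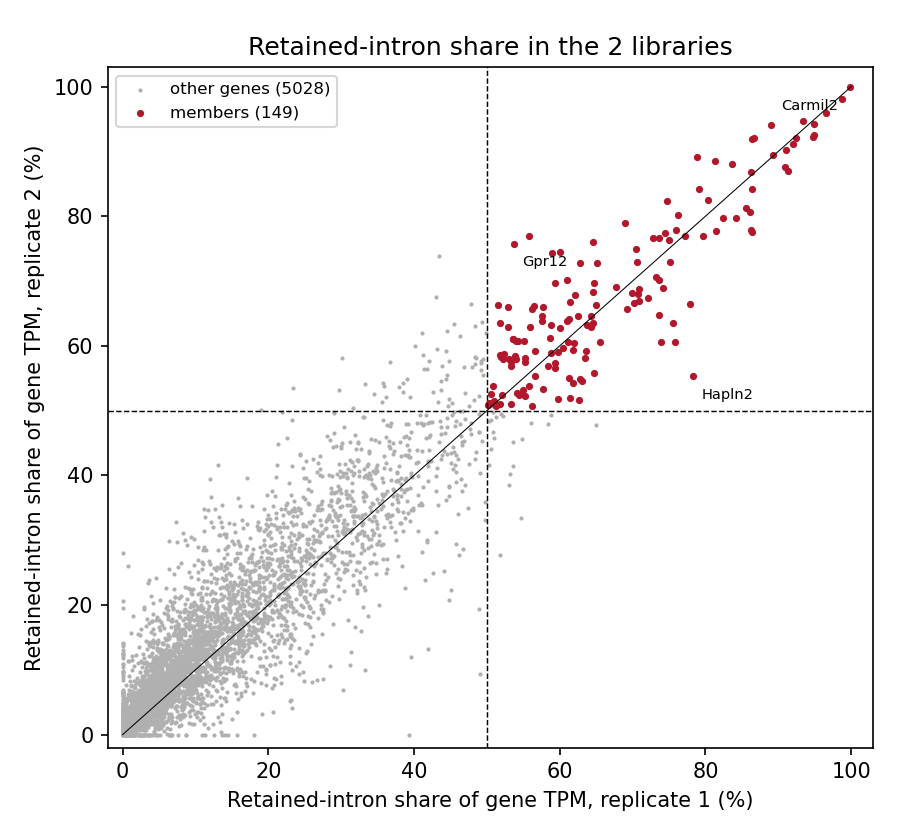
Retained-intron share of gene TPM (%) in replicate 1 (horizontal) and replicate 2 (vertical) for the 149 members (red) and the 5028 other genes at 10 TPM or more (grey), with dashed lines at 50%. Members fill the upper right corner by the rule, up to Carmil2 at 99.9% in both libraries. Hapln2 and Gpr12 lie farthest from the diagonal among members.

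The values at the edges of the rule were close together. Among the last genes inside were Stk25 at 50.1% and 50.9%, Rexo2 at 50.2% and 51.3%, Cpne5 at 51.1% and 50.8%, and Dnajc19 at 51.3% and 50.8%. Just outside were Tia1 at 49.9% and 62.0%, Clk3 at 51.9% and 49.5%, Il11ra1 at 50.9% and 49.8%, Aida at 49.4% and 55.5%, and Ulk3 at 49.4% and 57.9%. Including these, 80 genes were over 50% in 1 library only, 21 of them in replicate 1 and 59 in replicate 2. With replicate 1 left out of the rule 238 genes passed, and with replicate 2 left out 174. Another 250 were over 50% in both but under 10 TPM in at least 1 library, such as Rgs11 at 95.6% and 95.1% with 9.85 and 21.5 TPM.

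The size of the share depended on how it was measured. A second transcript table holds another quantification of the same reads, so it is not independent evidence. It gave members a median of 59.6% and 61.5%. There 104 members stayed over 50% in both libraries, or 69.8%, against 3.21% of all 5177 genes. Under 50% in both libraries in that table were 24 members, or 16.1%, against 94.7%. Counted in reads and not in TPM, the median was 49.5% and 51.7%. By count, 65 members were over 50% in both libraries, or 43.6%, against 1.64% of all, and 62 were under 50% in both, or 41.6%, against 97.3%. All 3 measures were over 50% in both libraries in 47 members, or 0.908% of the 5177 genes. The name of the set thus holds in full only for the measure that chose it.

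TPM divides reads by length, so a transcript shorter than the others of its gene takes a larger share of TPM than of reads. The members were chosen by TPM share, so the gap by length given here follows largely from the measure and the rule. The leading retained-intron transcript was under 50% of the length of the leading coding transcript in 84 members, or 57.1%, against 58.3% of all coding genes. These had a median TPM share of 61.8% and a median count share of 37.8%. The 63 others had 66.6% and 62.1%. A count share over 50% in both libraries was seen in 19 of the 84 and in 44 of the 63, against 1.64% of all 5177 genes. The other genes were not split by length in this way. The gap was wide in Ufm1, a ubiquitin-like modifier. Its retained-intron transcripts took 60.9% and 63.8% of its TPM but 8.68% and 10.5% of its counts. The leading one is 381 nt long and the leading coding one 4890 nt. It was widest among members in the ribosome biogenesis gene Nom1, where the shares were 75.2% and 73.0% of TPM, and 12.5% and 11.3% of counts, from 73.5 and 72.5 reads on a 531 nt model.

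**Figure D3:**
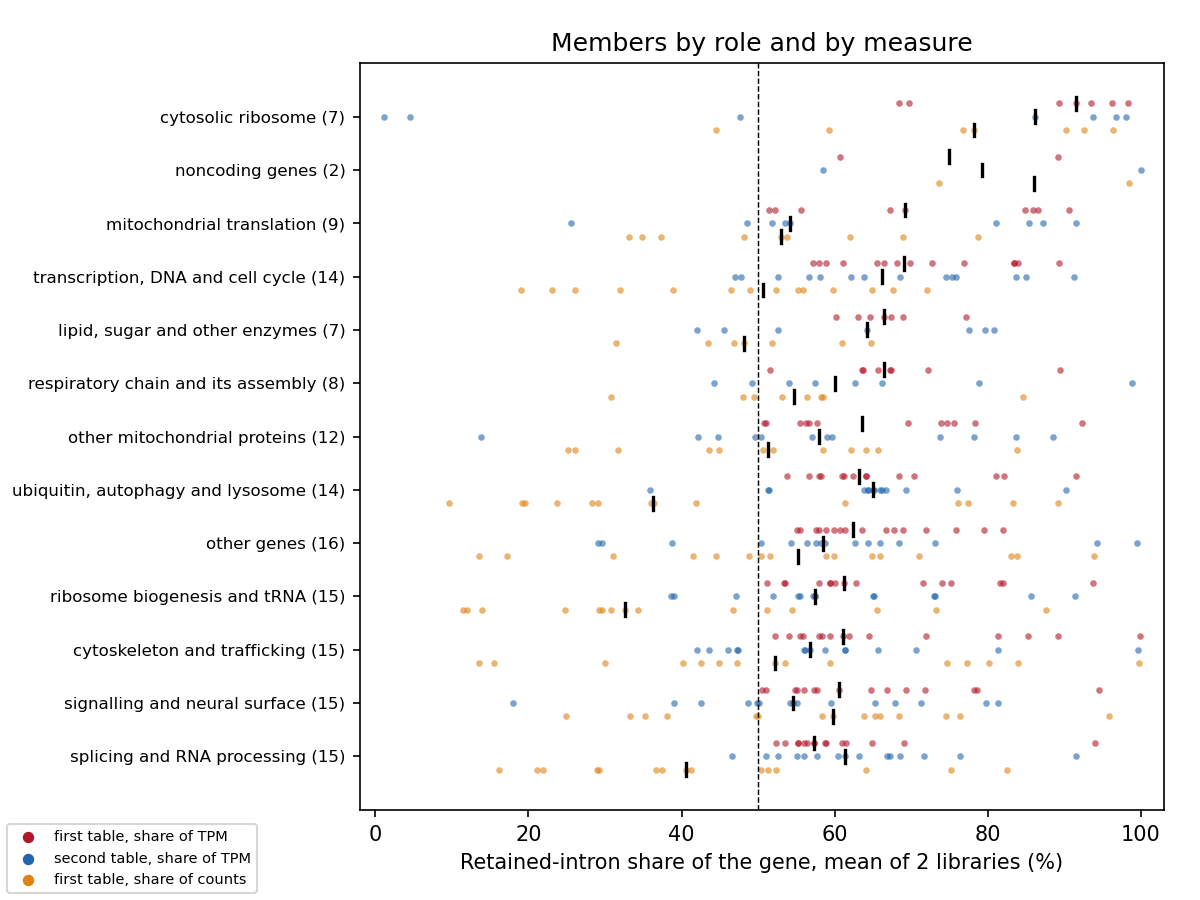
Retained-intron share of each member (points, mean of the 2 libraries, %) by role, as share of TPM in the first table (red), share of TPM in the second table (blue) and share of counts in the first table (orange), with the median of each as a black bar and the number of members in brackets. The ribosomal protein genes had the highest median in the first table, and 2 of them, Rps18 and Rps23, lie near 0 in the second.

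The 7 members that encode proteins of the small cytosolic ribosomal subunit had the highest shares as a group, with a median of 91.6% over the library means. Groups by role were drawn after the values were seen. Rps16 stood at 98.7% and 98.02%, Rps20 at 96.6% and 95.9%, Rps26 at 94.8% and 92.2%, and Rps18 at 92.02% and 91.1%. Rps23 followed at 90.97% and 87.6%, and Rps13 stood at 67.7% and 69.0%. Of the 27 Rps genes with a retained-intron transcript at 10 TPM or more, these 7 were members, and the median over the 27 was 1.28%. None of the 32 Rpl genes tested, which encode the large subunit, was a member, and their highest mean share was 40.3%. Members were 2.88% of all 5177 genes, so their absence among 32 genes says little. The symbol families were looked at after the values were seen.

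For Rps16 (ENSMUSG00000037563.15, chr7:28350652-28353155), the retained-intron transcripts held 263 and 274 TPM and the only coding model held 3.48 and 5.53 TPM. That coding model is 1109 nt long and the leading retained-intron model, whose start is printed above, is 518 nt long with 68 nt outside coding exons. Rps20 showed the same kind of pair, with a coding model of 3706 nt at 5.90 and 7.01 TPM beside retained-intron models at 167 and 163 TPM. In both genes the libraries lay close together and far on the same side. Rps18 and Rps23 did not keep their share in the second table, which gave Rps18 2.49% and 6.46% and Rps23 2.37% and 0%. Rps13 was higher there, at 93.5% and 93.97%.

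Ribosomal protein genes have processed pseudogenes with near-identical sequence, so their levels and shares are uncertain. Annotated pseudogenes named after Rps23 held 425 and 436 TPM in the first table, against 94.5 and 87.8 TPM for Rps23 itself. The pseudogene of Rps26 held 131 and 128 TPM against 73.8 and 73.3 TPM, and the 7 of Rps13 held 74.4 and 70.0 TPM against 91.3 and 101 TPM. Pseudogenes of Rps16 held 47.6 and 30.1 TPM and those of Rps18 37.1 and 19.2 TPM. The part of shared reads in these results was not tested.

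**Figure D4:**
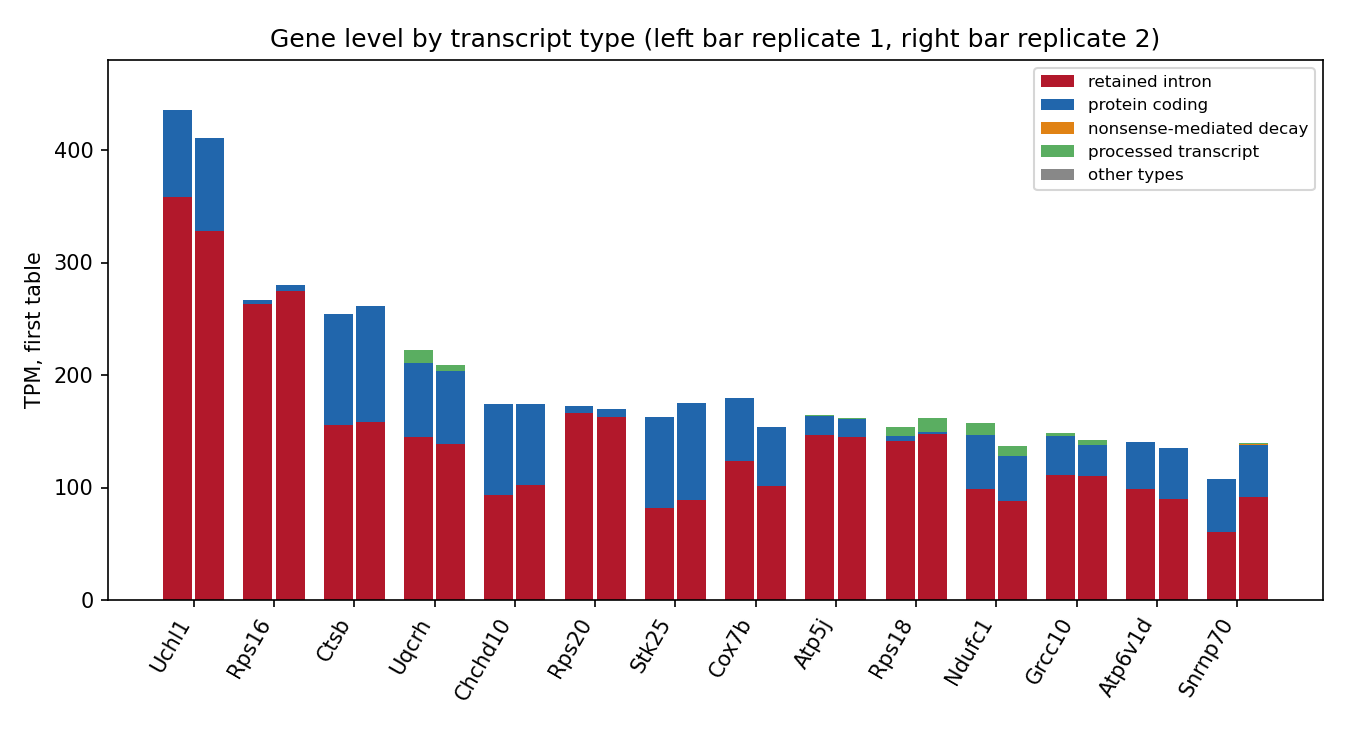
Gene level in TPM (first table, vertical axis from 0) of 14 of the members with the highest mean level, stacked by annotated transcript type, with replicate 1 as the left bar and replicate 2 as the right. Retained-intron transcripts (red) fill most of each bar, from nearly all of Rps16 to about as much as the coding transcripts (blue) in Stk25.

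Members of the protein breakdown and lysosome group included the most abundant of all. Uchl1 (ENSMUSG00000029223.12, chr5:66676091-66687234), a neuronal deubiquitinating enzyme, stood at 435 and 411 TPM, of which retained-intron transcripts held 359 and 328 TPM and the coding transcript 76.6 and 83.1 TPM. Its share of 82.4% and 79.8% was close to its count share of 79.1% and 75.8%, but the second table gave 33.2% and 38.4%. The retained-intron model of 980 nt differs from coding exons by the 52 nt printed above. Ctsb, the lysosomal protease cathepsin B, stood at 255 and 261 TPM with shares of 61.2% and 60.6%, and its count share was 19.3% and 18.9%. Atp6v1d, a subunit of the proton pump that acidifies lysosomes, had 70.2% and 66.6% of 141 and 136 TPM. Gabarapl2, an autophagosome protein, had 61.3% and 55.1% of 122 and 110 TPM. Atg4d, a protease that processes such proteins, had 89.0% and 94.1%, and it stayed over 80% of counts, at 82.4% and 84.2%. Over the 14 genes of this group, 12 were over 50% in both libraries in the second table and 5 were by count. Of all 149 members, 69.8% and 43.6% were, and of all 5177 genes 3.21% and 1.64%.

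Respiratory chain genes formed a group of 8 in which every leading transcript began inside an intron and none held a whole one. Of all coding genes at the TPM minimum, 42.4% began inside an intron and 26.9% held a whole one. Among the 7 cytosolic ribosome members, 6 began inside an intron and 1 held a whole one, so the trait is not particular to this group. Atp5j, a subunit of ATP synthase, had 89.2% and 89.5% of 165 and 162 TPM. Ndufb4, Ndufc1 and Ndufab1 encode complex I subunits, with shares of 77.9% and 66.5%, 62.5% and 64.6%, and 64.3% and 63.0%. Cox7b, of cytochrome c oxidase, had 69.2% and 65.6% in the first table and 98.8% and 98.9% in the second. Uqcrh, a hinge protein of complex III, had 65.0% and 66.2% of 223 and 209 TPM. The assembly factor genes Ndufaf8 and Ndufaf7 had 73.9% and 60.6%, and 50.5% and 52.6%. Of 26 Nduf genes tested 5 were members, against 2.88% of all 5177 genes. The median share over the 26 was 4.53%, against 8.005% over all 5177. This family was looked at after the values were seen.

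Mitochondrial translation supplied 9 members, and 5 of their leading transcripts held a whole intron, against 29.9% of coding members and 26.9% of all coding genes. With 9 genes grouped after the values were seen, this count says little. Mrps26, a small-subunit protein of the mitochondrial ribosome whose kept intron is shown above, had 91.1% and 90.2% by TPM, 92.4% and 90.7% in the second table and 70.0% and 67.9% by count. Mrps25 had 86.3% and 86.9% by TPM but 34.1% and 35.4% by count. Mrps24 had 81.3% and 88.5%, and Vars2, the mitochondrial valine tRNA ligase, 73.6% and 64.8%. Mrpl58, a peptide release factor of the mitochondrial ribosome, had 52.1% and 52.3% in the first table and 20.99% and 30.04% in the second. Of 44 Mrps and Mrpl genes tested, a family also looked at after the values were seen, 5 were members, against 2.88% of all 5177 genes. The median share over the 44 was 5.755%, below the 8.005% over all 5177. Among 12 other mitochondrial genes, Prelid1, which carries phosphatidic acid between the mitochondrial membranes, had 92.5% and 92.04% of 87.4 and 78.8 TPM from its only retained-intron model, the one with the 82 nt intron shown above. Dnajc19, of the inner-membrane import machinery, had 51.3% and 50.8% and had less in the second table, at 9.29% and 18.2%.

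Splicing and RNA processing genes made up 15 members, with the lowest median share of the role groups, 57.3%, and a median count share of 40.5%. In the second table, 12 of the 15 were over 50% in both libraries, against 69.8% of all 149 members and 3.21% of all 5177 genes. Thoc1, of the complex that couples transcription to RNA export, was the highest at 93.4% and 94.7%. Snrnp70, a protein of the U1 particle that recognises 5′ splice sites, had 56.2% and 65.7% by TPM and 68.1% and 82.2% by count, and its leading model is 4008 nt long with 2366 nt outside coding exons. Rbm25, a U1-associated regulator, had 55.2% and 57.5%, and Clk4, a kinase of SR proteins, 56.2% and 50.8%. Ccnl2, a cyclin of nuclear speckles, had 51.8% and 58.5% by TPM and 60.8% and 67.5% by count. Prpf39, another U1-associated protein, had 63.7% and 59.2%, and the branch-site protein gene Sf3b6 62.8% and 54.9%.

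Gene lists of RNA biology set these members in context. Of 22 tested genes on a list of splicing kinases and regulators known for detained introns, Rbm25 and Clk4 were members, and the list's median share was 23.9% in replicate 1 and 29.4% in replicate 2, above the 6.84% and 8.87% over all 5177 genes. Its other high genes were Tia1 and Clk3, just outside the rule, Rbm5 at 45.2% and 51.2%, Luc7l2 at 36.6% and 44.5%, and Clk1 at 38.9% and 39.5%. Low ones on the same list were Ddx5 at 0.99% and 0.60% and Luc7l3 at 4.03% and 3.87%. Of 32 tested spliceosome genes 4 were members (Prpf39, Snrnp70, Sf3b6 and Snrpb2), with a list median of 10.2% and 14.5%. None of 14 tested hnRNP genes was a member, and their highest mean was 32.7%, in Hnrnpk. No RNA decay gene of 14 tested and neither of 2 tested minor spliceosome genes was a member. Thoc1 was the only member among 9 tested genes of RNA export and the exon junction. Ncl was the only one among 16 tested snoRNA hosts. Over all 5177 genes 2.88% were members, so no member or 1 in lists this short says little about a family.

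Ribosome biogenesis and tRNA genes gave 15 members. Tbl3, a protein of the early small-subunit processome, had 95.0% and 92.5% by TPM and 89.0% and 86.3% by count, so its share held by each measure. Its mean gene level of 10.95 TPM was close to the minimum of 10 TPM. Its leading transcript also overlaps exons of the coding gene Noxo1 on the opposite strand. Ncl, encoding the nucleolar protein nucleolin, had 73.6% and 76.6% of 64.4 and 78.7 TPM and 50.7% and 51.7% of counts. Nmd3, an export adaptor of the large subunit, had 86.4% and 77.5% by TPM and 36.04% and 29.2% by count. The group's median count share, 32.6%, was the lowest of all role groups.

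Transcription, DNA and cell cycle genes gave 14 members. Taf10, a subunit of TFIID and SAGA, had 86.6% and 92.1%, and Rfc2, of the clamp loader of DNA replication, 78.8% and 89.2%. Gtf2h3, of the general factor TFIIH, had 86.2% and 80.7%. Cdk4, the G1 cyclin-dependent kinase, had 51.5% and 66.3%. Crtc2, a CREB coactivator, had 70.5% and 74.9%. In the second table, 12 of these 14 were over 50% in both libraries, and by count 4 were. The shares over all 149 members were 69.8% and 43.6%, and over all 5177 genes 3.21% and 1.64%.

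Cytoskeletal, signalling and cell-surface genes gave 30 members. Carmil2 (ENSMUSG00000050357.9, chr8:105686274-105698187), a regulator of actin capping, was the highest member of all at 99.9% and 99.9%. Its coding model drew 2.30 and 2.36 reads beside 1048 and 1221 reads on its retained-intron models, and the second table gave 99.6% and 99.7%. Gfra4 followed at 94.9% and 94.2%, with 96.6% and 95.1% of counts. Sytl2, a Rab27 effector in vesicle transport, had 86.4% and 84.2% and stayed near 80% by each measure. Dctn6, a dynactin subunit, had 80.3% and 82.5% by TPM and 56.2% and 57.4% in the second table. Nos1ap, an adaptor of neuronal nitric oxide synthase, had 61.8% and 59.4% of 93.9 and 98.8 TPM. Stk25, a Golgi-associated kinase, had 50.1% and 50.9% of 163 and 175 TPM, with 59.3% and 60.2% of counts. Capns1, the small calpain subunit, had 70.7% and 72.9%, against 19.0% and 17.1% in the second table.

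Enzymes of lipid, sugar and nucleotide metabolism gave 7 members between 60.2% and 77.1% in the mean, with Ptges2, a prostaglandin synthase gene, at the top and the ceramide synthase gene Cers4 at 60.1% and 74.5%. A further 16 members did not fall into these roles. Among them Grcc10 had 74.4% and 77.4% of 149 and 142 TPM, and Clptm1 had 58.7% and 61.2% of 76.1 and 81.2 TPM. Gm21992 shares exons on its strand with Rbm4 and Rbm14, so its 73.2% and 70.6% cannot be told apart from their reads. The leading transcript of Grcc10 likewise overlaps exons of the coding gene Gm45234 on its strand. In all, the leading transcript of 9 members overlapped exons of another gene on the same strand. In 4 of them, Dpm1, Eme2, Gm21992 and Grcc10, that was a coding gene. The leading transcript of 20 overlapped exons on the opposite strand, and in 13 of these the exons were of a coding gene. The 13 include the high-share members Carmil2, Thoc1, Tbl3, Prelid1, Atg4d and Taf10. Whether counting used strand is not known here, and the part of such overlaps in the shares was not tested. The counts of overlaps include small RNA genes within the exons. Genes other than members were not counted in this way, so the counts do not set members apart.

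Both noncoding members lack a coding transcript. Gm43305 had 91.3% and 87.0% of 11.96 and 13.3 TPM. A330023F24Rik (ENSMUSG00000096929.7, chr1:194976375-195037904) is the host of 2 miR-29 hairpins, and it had 57.5% and 63.9% of 31.9 and 34.3 TPM, with 69.3% and 78.0% of counts. Its leading retained-intron transcript, of 4432 nt, holds the hairpins of Mir29b-2 (81 nt) and Mir29c (88 nt) inside its exons. It was the only member whose leading retained-intron transcript held an annotated miRNA or other small RNA whole. The mature arms are shown for that reason, from RefSeq (GRCm38.p6), with the seed, bases 2 to 8, in capitals.
mmu-miR-29b-2-5p: cUGGUUUCacaugguggcuuagauu
mmu-miR-29b-3p: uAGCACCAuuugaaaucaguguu
mmu-miR-29c-5p: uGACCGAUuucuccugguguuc
mmu-miR-29c-3p: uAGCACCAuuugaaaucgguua
The 3p arms share a seed and the 5p arms do not. Both hairpins were listed at 0 counts in both libraries, and the libraries here do not measure mature miRNAs.

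Between the 2 libraries, the members' retained-intron shares lay on either side of each other, and the size of the median difference depended on the measure. Over all 5177 genes the share was higher in replicate 2 in 68.4%, with a median difference of 1.16 points (replicate 2 minus replicate 1). It was lower in 30.6%. Among members it was higher in 78 of 149, or 52.3%, and lower in 71, with a median of 0.28 points and quartiles of -2.64 and 5.09. The second table gave 56.4% of members against 68.2% of all genes, and the count share 55.7% against 71.2%. The median difference was 0.84 points in members and 1.04 points over all genes in the second table, and 0.74 and 0.61 points by count. Members had to be over 50% in both libraries, and the genes over 50% in 1 library only were mostly so in replicate 2 (59 against 21), so the rule itself bears on these counts. No test of the difference was run. RNAs known to stay in the nucleus moved with the overall difference, with Malat1 at 2936 and 4776 TPM, Meg3 at 624 and 1010 TPM and Neat1 at 14.5 and 27.1 TPM, and these 3 were chosen after their values were seen. Their part in the result was not tested.

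**Figure D5:**
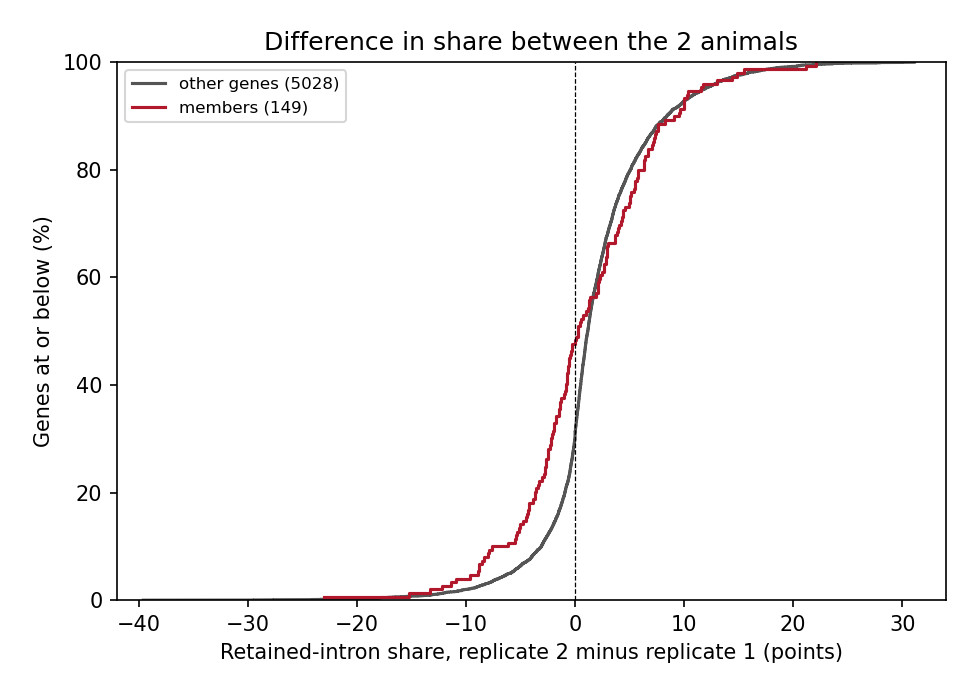
Cumulative percent of genes (vertical axis) by the difference in retained-intron share, replicate 2 minus replicate 1, in points (horizontal axis), for the 149 members (red) and 5028 other genes (grey). The members' curve crosses 0 near its middle, with 71 of 149 lower in replicate 2, while the other genes lie more to the right of 0.

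Single members differed between the animals in either direction. The absolute difference had a median of 3.88 points in members and 2.38 points over all 5177 genes. The share was over 10 points higher in replicate 2 in 12 members, or 8.05%, against 7.24% of all 5177 genes. It was over 10 points lower in 6, or 4.03%, against 2.09%. Hapln2, a link protein of the perinodal matrix, had 78.3% in replicate 1 and 55.3% in replicate 2, with a coding level of 1.31 and 2.48 TPM. Gpr12, an orphan receptor gene of neurons, had 53.7% and 75.8%, and its retained-intron transcripts stood at 6.17 and 11.6 TPM. In the second table Gpr12 had 44.5% and 40.6%, so the direction was not kept there. Rpain had 55.8% and 77.0%, Izumo4 58.9% and 74.4%, and Irf3, an interferon transcription factor, 75.8% and 60.6%.

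With TMM scaling in edgeR, no member of 149 was over 2-fold higher or lower in replicate 2, against 0.630% of 14127 genes in each direction, so this count is near the background. The median log2 difference in level was 0.01 in members and -0.02 over all genes. Its quartiles were -0.16 and 0.19 in members, and -0.14 and 0.07 in the 5028 other genes at 10 TPM or more. Spike-in scaling moved the median of all genes to 0.25 and that of members to 0.28, so the direction of single levels depends on the scaling. In tissue RNA, more cells of a type and more RNA per cell cannot be told apart. Clasrp, a splicing regulator related to Clk kinases, had the largest difference among members, with 672 and 1192 expected counts and a log2 difference of 0.69 in scaled counts. Its gene TPM, which also moves with the lengths of the transcripts assigned, stood further apart at 16.9 and 39.4. Its coding transcripts stood at 0.71 and 5.59 TPM and its retained-intron transcripts at 9.05 and 24.01 TPM. Snrnp70 had 108 and 140 TPM with a log2 difference of 0.56 in scaled counts. Its coding transcripts stood at 47.3 and 46.2 TPM while its retained-intron transcripts stood at 60.6 and 91.8 TPM.

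For the leading retained-intron transcript, the deposited credibility bounds of TPM were compared between the libraries. They were apart with replicate 2 higher in 13 members, or 8.72%, against 10.9% of all 5177 genes. They were apart with replicate 2 lower in 4, or 2.68%, against 1.02%. The level of these bounds is not stated. Snrnp70 had bounds of 14.4 to 17.7 TPM in replicate 1 and 33.1 to 37.7 TPM in replicate 2. The 4 lower ones were Uchl1, with 323 to 351 and 289 to 318 TPM, and Cox7b, Prelid1 and Sugt1. Sugt1 encodes a cochaperone, and its retained first intron is among the sequences above.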

How the data were processed

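Expected counts, TPM and the percent of gene TPM per transcript were deposited by the authors in one pair of tables per library, with estimated counts and TPM per transcript in a second table. The deposited percent values include a posterior mean, and the credibility bounds are deposited scores whose level is not given. Per the deposited readme, reads were mapped to mm10 with GENCODE M21. The sources used here do not give the aligner, the quantification tools or whether counting used strand. Members and lists were chosen with earlier results of these data known. Count share is expected counts of retained-intron transcripts over those of the gene. Gene levels were compared with edgeR 4.0.16 in R 4.3.3 on rounded expected counts (TMM, prior count 1, mean of at least 50 counts), tested on simulated data, with DESeq2 1.42.0 size factors, spike-in totals and total counts as alternatives. Structure came from the GENCODE M21 annotation, with whole introns of at least 50 nt. Tables were handled in Python 3.11.15. Named genes are the highest in TPM, share or difference, edge genes, list members and noncoding members. Replicates carry different animal numbers but 1 donor entry, and 1 library each limits precision to the spread between 2 values. Reads of the hybrid were counted without regard to allele here. Some items that the rules name are not reported here.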

Additional observations from a re-analysis of the deposited data

How the results depend on the processing

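The number of genes passing the rule was 149. It was 264 with a TPM minimum of 1, 37 with a minimum of 50, 34 with a share over 75%, and 85 by count share. Posterior mean percents gave 150, and 166 passed in the second table. Leaving out an animal gave 174 (replicate 1 alone) to 238 (replicate 2 alone). The members' median share was 64.1% in the mean of both libraries, 59.6% in the second table and 51.2% by count, and 62.8% to 64.8% with 1 library left out. Members over 50% in both libraries numbered 149, and 65 by count. Single shares moved by more than 1 SD in 109 of 149 members in the second table and in 132 by count. Of all 149, whatever the size of the move, 93 were lower and 56 higher in the second table. By count, 128 were lower and 21 higher. The cause was not tested. The median log2 difference in member level was 0.01, and 0.28 with spike-in totals. No member passed 2-fold under any scaling, prior or count minimum tried, nor by second-table counts. A whole intron was held in 29.9% of coding members, and in 55.8% when any retained-intron transcript counted, an alternative chosen after seeing the data. Among members also over 50% in the second table the whole-intron share was 32.4% and the median outside coding exons 99 nt. No paired analysis was possible because there is 1 group only. Depth limits low counts such as those of Nom1.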
